A study of Mus musculus with 12 samples.

Results

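The myogenic transcription factors described here are 9 genes, Myod1, Myog, Myf5 and Myf6 of the MyoD family, Pax7, the MEF2 genes Mef2a, Mef2c and Mef2d, and Six4, taken by gene symbol from the 15113 genes of the deposited count table. All 9 genes were listed, and all 9 passed the filter on low counts that left 12730 genes for testing. They were taken by name for their role in muscle, at a time when earlier results of these data were known. RNA came from C2C12 cells, mouse myoblasts of an established line whose cells fuse to myotubes in low serum, and all cells, controls included, had been differentiated for 5 days in horse serum medium. Myotubes were then given 20 μM BAM15, a mitochondrial uncoupler that carries protons across the inner membrane, dissolved in DMSO, or vehicle, for 16 h. There were 6 libraries per condition, numbered 1 to 6, and total counts ranged from 13983725 to 18866728 reads. The labels do not say whether libraries of a condition came from separate cultures, so the p-values measure the spread between these libraries, which may be technical, and a single cell line was studied.

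Muscle cells are specified and matured by a cascade of transcription factors. Pax7 marks muscle stem cells, Myf5 and Myod1 commit cells to the muscle fate, and myogenin (Myog) and Myf6 act during differentiation, each MyoD family protein pairing with an E protein to bind E-box DNA. MEF2 proteins bind AT-rich sites beside them, and Six4 binds MEF3 sites in front of muscle genes such as Myog.

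With BAM15, 4 of the 9 factors fell and 2 rose at an adjusted p-value below 0.01 (edgeR's quasi-likelihood test, Benjamini-Hochberg adjustment over all tested genes). Myod1 fell by 51.1%, Pax7 fell by 47.4%, Mef2c fell by 41.8% and Mef2a fell by 30.8%, while Myf5 was 3.23-fold and Myog 1.29-fold as high as with vehicle. Over all tested genes 20.3% fell and 22.0% rose by the same rule, so changes of this kind were common in these cells. Past the study's 3 thresholds together, an adjusted p-value below 0.01, a mean normalized count above 50 and a change of more than 2-fold, were 2 factors, Myod1 and Myf5, against 7.28% of all tested genes. The 9 factors had a median log2 fold change of -0.31, against 0.02 over the tested genes. The median was the value of Myf6, the least counted factor, and it was -0.15, -0.17, -0.17 and -0.52 without BAM15 library 1, 2, 3 or 5, -0.49 and -0.12 without vehicle library 1 or 3, and 0.13 with libraries 4 to 6 only.

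The DNA in front of the factors' own genes was read from RefSeq promoter windows on mouse build GRCm38.p6, 250 bases before to 50 bases after each transcription start, which were found for 7 of the 9 genes. Each window was searched on both strands for the E-box CANNTG, for TCAGGTT as the MEF3 site and for YTAWWWWTAR as the MEF2 site. In these patterns N is any base, Y is C or T, W is A or T and R is A or G. Of 32851 promoter windows of this length, 72.3% held an E-box, 4.07% the MEF3 letters and 3.19% a MEF2 site. The 3 windows below are shown because they belong to factors that changed and hold motifs that the families described here bind, and capitals mark these motifs, on either strand.
Myog, chr1:134289754-134290053, plus strand: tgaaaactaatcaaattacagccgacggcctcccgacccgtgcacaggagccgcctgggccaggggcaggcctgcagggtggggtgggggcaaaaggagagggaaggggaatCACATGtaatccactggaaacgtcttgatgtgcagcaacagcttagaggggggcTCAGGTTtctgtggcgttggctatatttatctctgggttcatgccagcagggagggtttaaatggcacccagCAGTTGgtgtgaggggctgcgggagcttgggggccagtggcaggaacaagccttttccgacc
Mef2a, chr7:67372809-67373108, minus strand: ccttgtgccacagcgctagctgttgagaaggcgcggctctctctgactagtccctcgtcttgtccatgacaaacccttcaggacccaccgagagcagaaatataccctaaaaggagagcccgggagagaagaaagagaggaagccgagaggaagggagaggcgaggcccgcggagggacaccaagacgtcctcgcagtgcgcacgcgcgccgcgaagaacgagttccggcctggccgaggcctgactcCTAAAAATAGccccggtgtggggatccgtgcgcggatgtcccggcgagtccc
Mef2c, chr13:83503784-83504083, plus strand: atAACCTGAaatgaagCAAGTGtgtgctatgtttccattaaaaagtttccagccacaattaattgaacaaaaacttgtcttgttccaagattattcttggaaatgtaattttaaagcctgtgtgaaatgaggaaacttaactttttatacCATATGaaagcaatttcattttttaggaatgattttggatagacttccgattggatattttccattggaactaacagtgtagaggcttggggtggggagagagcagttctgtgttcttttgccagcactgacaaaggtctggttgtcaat
With the start base counted as 0, the Myog window held E-boxes from -138 to -133 and from -12 to -7, and the MEF3 letters from -84 to -78. The Mef2a window held a MEF2 site from -2 to 7, across the start, and the Mef2c window, the first of 3 for that gene, held E-boxes from -234 and from -100 and the MEF3 letters from -248. The third Mef2c window held 1 E-box, 1 of the 2 Six4 windows held the MEF3 letters, and the windows of Myf5, Pax7 and Mef2d held none of these motifs. Only full matches were marked, so ctatatttat in the Myog window, which differs from the MEF2 pattern at its last base, is in lower case. A match of letters is a description and was not tested for binding.

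Pax7, the paired-box factor of muscle stem cells (chromosome 4, 139737062 to 139833528, minus strand; positions here and below are from the GENCODE annotation of GRCm38), acts at the start of the cascade. Its normalized count, the read count scaled by library size and composition, ran from 102 over a median of 109 to 146 with BAM15 and from 189 over a median of 216 to 265 with vehicle. Every BAM15 library lay below every vehicle library, which was so for 17.0% of all tested genes. The log2 fold change was -0.93 with a standard error (SE) of 0.11 and an adjusted p of 4.93e-06, from means of 115 ± 17.0 and 219 ± 26.9 (SD, n = 6 each; edgeR's quasi-likelihood test). In RNA from whole cultures, fewer cells of a type and less RNA per cell cannot be told apart, for Pax7 as for the genes that follow.

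Myf5, the MyoD family member that acts early in commitment (chromosome 10, 107482908 to 107486134, minus strand), moved the other way. It ran from 188 over a median of 426 to 845 normalized counts with BAM15 and from 95.6 over a median of 148 to 201 with vehicle. The groups overlapped through BAM15 library 2, the lowest, and the other 5 BAM15 libraries lay above all vehicle libraries. The rise was 1.69 on the log2 scale (SE 0.35, adjusted p = 0.00144, edgeR's quasi-likelihood test), and the means of 479 ± 260 and 148 ± 39.7 (SD, n = 6 each) show how much wider BAM15 libraries spread.

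Myod1, the factor that can turn other cells into muscle (chromosome 7, 46376474 to 46379099, plus strand), fell. Its normalized count ran from 532 over a median of 600.0 to 708 with BAM15 and from 1159 over a median of 1235 to 1271 with vehicle. The groups were far apart, with no BAM15 library above 708 and no vehicle library below 1159. The log2 fold change was -1.03 (SE 0.07, adjusted p = 6.48e-09, edgeR's quasi-likelihood test), from means of 601 ± 63.0 and 1229 ± 39.2 (SD, n = 6 each). The change lay close to the 2-fold threshold, and without BAM15 library 2 the log2 fold change was -0.999, just short of 2-fold.

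Myog, whose product myogenin drives terminal differentiation and fusion (chromosome 1, 134289989 to 134292548, plus strand), was the most counted factor of the MyoD family. It ran from 13876 over a median of 18197 to 20436 normalized counts with BAM15 and from 11793 over a median of 13768 to 16059 with vehicle. The groups overlapped through BAM15 library 2 again, and the other 5 BAM15 libraries lay above all vehicle libraries. The rise was 0.37 on the log2 scale (SE 0.09, adjusted p = 0.00361, edgeR's quasi-likelihood test), from means of 17838 ± 2369 and 13804 ± 1445 (SD, n = 6 each). It did not pass the threshold without BAM15 library 4, vehicle library 3 or vehicle library 5 (adjusted p = 0.0106, 0.0105 and 0.0103), or when counts were scaled by library size alone (adjusted p = 0.0145).

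Myf6, which acts in late differentiation and in mature fibres, was close to the limit of detection, at 4 to 23 reads per library. Its normalized count ran from 3.88 over a median of 6.09 to 21.6 with BAM15 and from 4.40 over a median of 11.3 to 18.2 with vehicle. The groups overlapped, with 2 BAM15 libraries below and 1 above all vehicle libraries, and the log2 fold change of -0.31 (95% interval -1.30 to 0.68, adjusted p = 0.585, edgeR's quasi-likelihood test) left changes of more than 2-fold downwards within the interval.

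**Figure D1:**
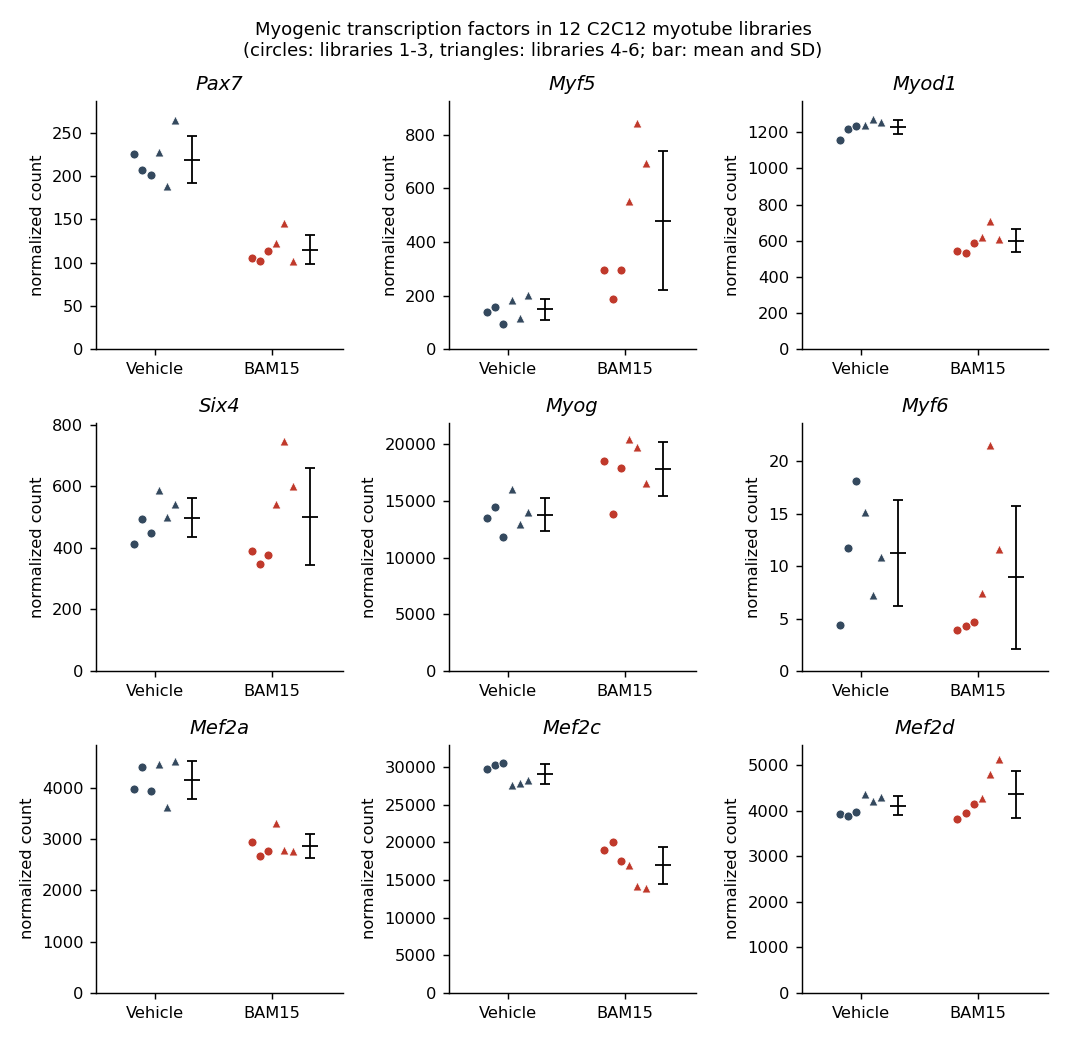
Normalized count (vertical axes, from 0) of each of the 9 factors in the 6 vehicle and 6 BAM15 libraries, 1 point a library, with circles for libraries 1 to 3, triangles for libraries 4 to 6 and black bars for the mean and SD of 6. Pax7, Myod1, Mef2a and Mef2c show BAM15 points all below the vehicle points. The BAM15 points of Myf5, Six4, Myod1, Myf6, Mef2c and Mef2d split between circles and triangles.

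Of the MEF2 genes, Mef2c, a main MEF2 gene of developing muscle (chromosome 13, 83504034 to 83667080, plus strand), fell furthest. Its normalized count ran from 13939 over a median of 17270 to 20007 with BAM15 and from 27651 over a median of 29055 to 30603 with vehicle. No library of one group reached the other, and the log2 fold change was -0.78 (SE 0.09, adjusted p = 1.96e-06, edgeR's quasi-likelihood test), from means of 16951 ± 2452 and 29103 ± 1277 (SD, n = 6 each).

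Mef2a, which is expressed in many tissues (chromosome 7, 67231163 to 67372858, minus strand), also fell. It ran from 2660 over a median of 2776 to 3311 normalized counts with BAM15 and from 3627 over a median of 4181 to 4517 with vehicle. Here too the groups did not overlap, and the log2 fold change was -0.53 (SE 0.07, adjusted p = 1.25e-05, edgeR's quasi-likelihood test), from means of 2872 ± 235 and 4150 ± 361 (SD, n = 6 each).

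Mef2d, a widely expressed MEF2 gene (chromosome 3, 88142372 to 88172086, plus strand), did not pass the test. It ran from 3819 over a median of 4211 to 5124 normalized counts with BAM15 and from 3877 over a median of 4093 to 4366 with vehicle. The groups overlapped, and the log2 fold change of 0.08 had a 95% interval of -0.08 to 0.24 (adjusted p = 0.353, edgeR's quasi-likelihood test). The last 400 bases of each of its 4 coding transcripts, where 3′ reads start, together cover 1200 bases. Of these, 400 lie opposite another annotated gene, 1700113A16Rik, and the strand used in counting is not given in the sources used here. No other factor had such an overlap.

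Six4, a homeodomain factor that acts upstream of the MyoD family (chromosome 12, 73099609 to 73113456, minus strand), did not pass the test either. It ran from 347 over a median of 466 to 748 normalized counts with BAM15 and from 412 over a median of 497 to 587 with vehicle. BAM15 libraries lay on both sides of the vehicle libraries, 3 below all of them and 2 above all of them, and the log2 fold change was 0.01 (95% interval -0.38 to 0.40, adjusted p = 0.966, edgeR's quasi-likelihood test). Over the 9 factors, 4 thus had all BAM15 libraries below all vehicle libraries, against 17.0% of all tested genes. Those with all BAM15 libraries above numbered 0, against 17.1% of all tested genes.

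The balance within each family was then read inside each library, where it does not depend on scaling between libraries. Libraries were made from the 3′ ends of transcripts, so that a transcript gives about 1 tag whatever its length, and shares are of reads. Myod1 gave 2.82 to 3.64% of the MyoD family reads with BAM15 and 7.07 to 9.38% with vehicle. Myog gave 92.6 to 95.6% and 89.8 to 91.8%, and Myf5 gave 1.29 to 3.97% and 0.727 to 1.30%. The shares of Myod1 and Myog did not overlap between groups, whereas those of Myf5 met at their edges. There were 26.1 to 34.0 Myog reads for each Myod1 read with BAM15 and 9.57 to 12.98 with vehicle. There were 0.354 to 1.19 Myf5 reads for each Myod1 read with BAM15 and 0.0776 to 0.160 with vehicle, and Myf5 outnumbered Myod1 in BAM15 libraries 5 and 6. Pax7 reads for each Myod1 read, at 0.166 to 0.206 and 0.148 to 0.211, overlapped.

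Among the MEF2 reads, Mef2c gave 63.9 to 75.2% with BAM15 and 75.8 to 79.5% with vehicle. Mef2d gave 14.8 to 23.5% and 10.1 to 11.97%, and Mef2a gave 9.99 to 13.5% and 10.1 to 12.2%. The share of Mef2c was lower and that of Mef2d higher in every BAM15 library than in any vehicle library, while the share of Mef2a overlapped. The summed normalized count of the 3 MEF2 genes was 21826 to 26617 with BAM15 and 35783 to 38577 with vehicle, without overlap. That of the 4 MyoD family genes, most of it Myog, was 14600 to 21616 and 13139 to 17494, with overlap. These shares and sums are descriptions and carry no test.

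**Figure D2:**
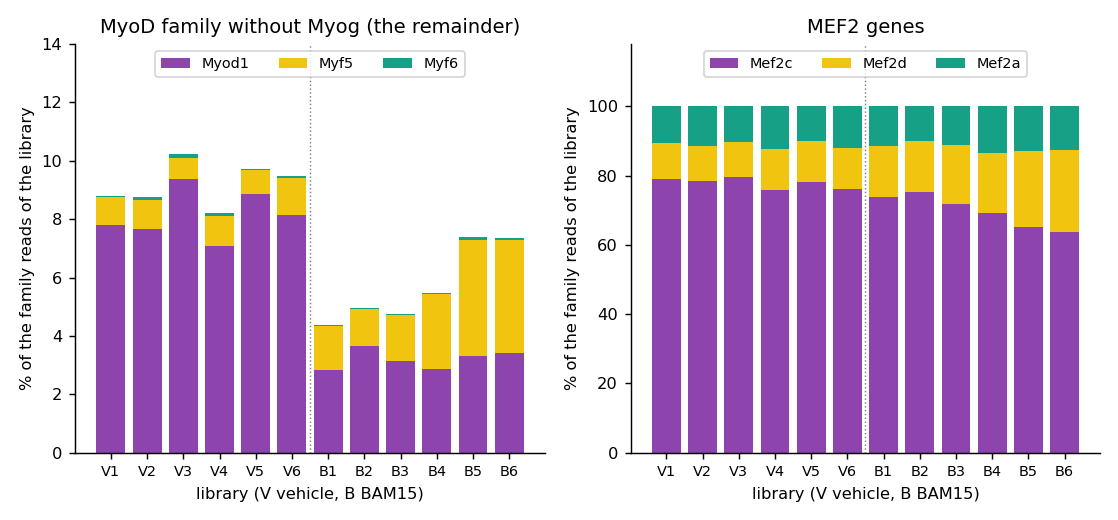
Share of each gene in the reads of its family (vertical axes, percent, from 0) in each vehicle (V1 to V6) and BAM15 (B1 to B6) library, for the MyoD family without Myog, which makes up the remainder to 100%, on the left and for the MEF2 genes on the right. The Myod1 part is 7.07 to 9.38% in vehicle libraries and 2.82 to 3.64% in BAM15 libraries, and the Mef2d part is larger in every BAM15 library than in any vehicle library.

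BAM15 libraries were split into 1 to 3 and 4 to 6 because these sets were already known to differ in these data. The counts between the sets, for the factors too, therefore describe that split and are no independent test of it. The difference between 2 libraries was taken as a chi-square per gene. By it BAM15 library 4 lay nearer to library 3 (15.6), 1 (20.8) and 2 (26.5) than to 6 (29.1) or 5 (30.7). Libraries 5 and 6 lay close together (9.78). Between BAM15 libraries 4 to 6 and 1 to 3, 4940 genes, 38.8% of those tested, had an adjusted p below 0.05 (edgeR's quasi-likelihood test). Between vehicle libraries 4 to 6 and 1 to 3 the same test gave 0 genes, and 696 at an unadjusted p below 0.05. No label says what the numbers stand for, so BAM15 changes are given within each set of numbers. Myf5 rose by 1.00 within numbers 1 to 3 (SE 0.27, adjusted p = 0.00808) and by 2.07 within numbers 4 to 6 (SE 0.25, adjusted p = 3.17e-05, both edgeR's quasi-likelihood test). The BAM15 means were 261 ± 63.0 and 698 ± 145 normalized counts and the vehicle means 131 ± 31.8 and 166 ± 44.8 (SD, n = 3 each). The difference between the 2 changes, 1.06 on the log2 scale, did not pass its own test (adjusted p = 0.106, edgeR's quasi-likelihood test).

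Six4 had log2 fold changes of -0.28 within numbers 1 to 3 and 0.22 within numbers 4 to 6, a difference of 0.49 with an adjusted p of 0.0785 (edgeR's quasi-likelihood test). Between BAM15 libraries 4 to 6 and 1 to 3, 6 of the 9 factors differed at an adjusted p below 0.05, against 38.8% of all tested genes. Six4 was 0.76 higher on the log2 scale in libraries 4 to 6 than in 1 to 3 (adjusted p = 1.71e-04), and Mef2d was 0.25 higher (adjusted p = 0.00687), Myf5 1.42 higher (adjusted p = 0.00117) and Mef2c lower, at -0.32 (adjusted p = 0.00265, all edgeR's quasi-likelihood test). Myf6 was 1.66 higher from few reads (adjusted p = 0.0281) and Myod1 0.22 higher (adjusted p = 0.0343, edgeR's quasi-likelihood test). The 4 factors that fell did so in both sets of numbers: Myod1 by 1.11 and 0.96 on the log2 scale, Pax7 by 0.98 and 0.87, Mef2c by 0.68 and 0.89 and Mef2a by 0.55 and 0.51. In this fit with 4 groups Myog had log2 fold changes of 0.34 and 0.40, short of the threshold in both (adjusted p = 0.0301 and 0.012, edgeR's quasi-likelihood test). Fitted alone, libraries 4 to 6 gave 0.39, past the threshold (adjusted p = 0.00572, edgeR's quasi-likelihood test). Libraries 1 to 3 alone gave 0.33, short of it (adjusted p = 0.0432, same test). None of the 9 factors had a change that differed between the sets at an adjusted p below 0.05, against 2.66% of all tested genes, and at an unadjusted p below 0.05 there were 3, Myf5, Myf6 and Six4, against 26.0% of all tested genes.

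**Figure D3:**
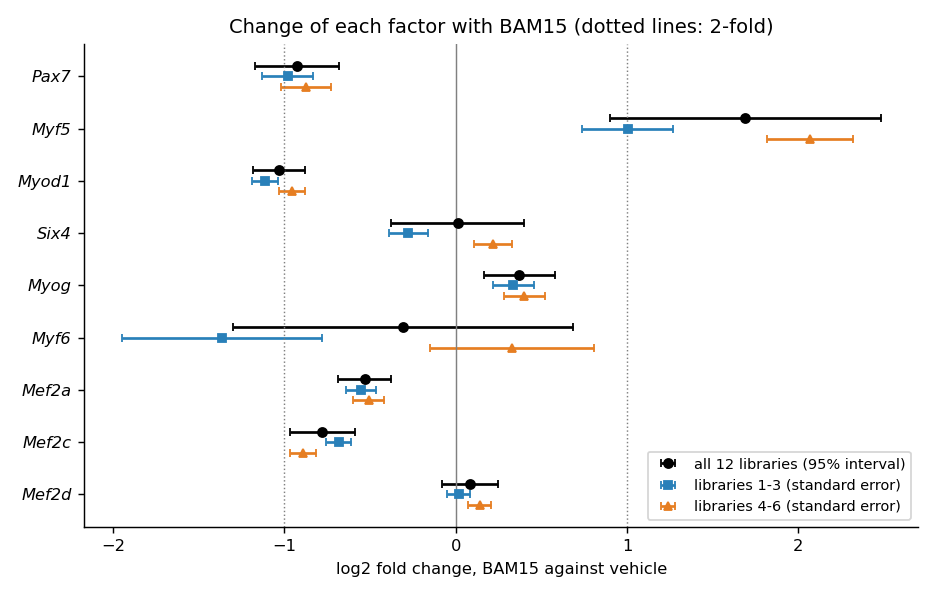
Log2 fold change with BAM15 against vehicle (horizontal axis) for the 9 factors, over all 12 libraries with its 95% interval (black), and within libraries 1 to 3 (squares) and 4 to 6 (triangles) with standard errors; dotted lines mark 2-fold changes. Myf5 lies at 1.00 and 2.07 in the 2 sets, and Six4 and Myf6 fall on different sides of 0.

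Markers of other cell states and types were read in the same libraries, where 20.3% of all tested genes fell and 22.0% rose. All 10 genes of proliferating cells fell, and their summed normalized count was 2708 to 3093 with BAM15 and 7409 to 8104 with vehicle, so that vehicle cultures labelled as fully differentiated still held such reads. Of 9 tested genes of undifferentiated and reserve myoblasts 3 fell, Heyl, Cxcr4 and Sdc4, and 0 rose, with sums of 2814 to 4057 and 4524 to 5714. Of 8 myotube genes, all with means above those of every factor but Myog and Mef2c, Acta1 rose and Ckm fell, and their sums, 358325 to 475975 with BAM15 and 379627 to 429717 with vehicle, overlapped. Of the non-muscle lists, 3 of 7 adipocyte, 5 of 7 fibroblast, 1 of 5 leukocyte and 1 of 5 endothelial genes had counts. Of 2 tested adipocyte genes 1 rose, Pparg, from 12.7 ± 5.11 to 82.3 ± 60.9 normalized counts (SD, n = 6 each). Fabp4 reached at most 3 reads, and 1 of 3 tested fibroblast genes (Dcn) fell. The 1 leukocyte gene tested (Cd68) rose from 13.7 ± 3.84 to 64.2 ± 8.53, and the endothelial gene Tek had at most 6 reads. Whether non-muscle cells were present was not tested. The part of the cell states and types above in the levels of Pax7, Myod1, Myf5 and the MEF2 genes was not tested either.

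The partners of the factors were read from lists of named genes. Of 23 E proteins and cofactors of MyoD and MEF2, 8 fell and 4 rose (median log2 fold change -0.09). The shares over all tested genes were 20.3% and 22.0%. Vgll2, a TEAD cofactor of muscle, rose by 0.95 on the log2 scale (576 ± 22.4 normalized counts with vehicle and 1114 ± 64.8 with BAM15, SD, n = 6 each), and Rbm24, a muscle RNA-binding protein, rose by 0.66. Mapk12, a p38 kinase of muscle, rose by 0.27. Those with the lowest p-values among the 8 that fell were Tcf4, an E protein, at -0.60, Mrtfb, a cofactor of serum response factor, at -0.72, and Setd7, a lysine methyltransferase, at -0.52. The 4 that rose were 2 without vehicle library 6.

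Of 21 inhibitors of the factors, 8 fell and 5 rose (median -0.26), where 20.3% of all tested genes fell and 22.0% rose. Msc (musculin), a basic helix-loop-helix repressor that competes for E-boxes, fell by 2.65 on the log2 scale, from 237 ± 12.4 to 37.8 ± 8.68 normalized counts (SD, n = 6 each). Ccnd1, a cyclin that restrains MyoD in dividing cells, fell by 1.43, and Sox9 fell by 0.62. Snai2, a zinc finger repressor of E-boxes, rose by 1.35, from 652 ± 62.6 to 1664 ± 207, and Hdac4, a deacetylase that represses MEF2, rose by 1.219, from 568 ± 59.8 to 1324 ± 161. Bhlhe41, a repressor of the same helix-loop-helix class, rose by 0.35. The last 400 bases of the Ccnd1 coding transcript lie opposite another annotated gene. So do 400 of the 800 bases that the ends of the 2 coding transcripts of Bhlhe41 cover together.

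Of 15 upstream factors, paired-box and homeobox genes, their EYA partners and others, 5 fell and 3 rose (median -0.09). Here too the shares over all tested genes were 20.3% and 22.0%. Runx1 fell by 0.41 on the log2 scale (2057 ± 174 to 1554 ± 125 normalized counts, SD, n = 6 each) and Nfix, a switch factor of fetal muscle, fell by 0.37. Of the last bases of the Nfix coding transcripts, 80 of 1030 lie opposite G430095P16Rik and 4 opposite Lyl1. Foxc1 rose by 0.81, Tbx1, a factor of head muscle, by 0.69 and Six5 by 0.64.

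Genes that the factors are known to switch on were read in the same way. Of 35 targets of MyoD and myogenin, 14 fell and 1 rose, with a median log2 fold change of -0.22 and 30 values below 0, where 20.3% of all tested genes fell and 22.0% rose. Cdh15 (M-cadherin), an adhesion protein of myoblasts, fell by 0.83, from 4367 ± 283 to 2460 ± 220 normalized counts (SD, n = 6 each), Rapsn, which clusters acetylcholine receptors, fell by 0.40, and Mymx, a fusion peptide, by 0.38. The gene that rose was Acta1, skeletal actin, at 0.46, from 127952 ± 6864 to 175768 ± 14301. Stretches of 50 bases near the 3′ end of Acta1 also occur in other genes in 4.42% of cases.

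Of 25 targets of MEF2, 9 fell and 4 rose (median -0.15), where 20.3% of all tested genes fell and 22.0% rose. The list as written holds Bop1, a ribosome biogenesis gene, and without it 9 of 24 fell and 4 rose (median -0.22). Synpo2l, a Z-disc protein, fell by 1.08, from 10969 ± 415 to 5205 ± 615 normalized counts (SD, n = 6 each), Klf2 by 1.02 and Smyd1, a muscle methyltransferase, by 0.42. Klf4 rose by 1.09, from 1525 ± 157 to 3236 ± 509, Xirp2, an actin-binding protein of muscle, by 0.97 and Ankrd2, a stretch-responsive muscle protein, by 0.69. In each named gene of the lists the adjusted p was 0.00326 or lower (edgeR's quasi-likelihood test), Mapk12 having the highest.

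**Figure D4:**
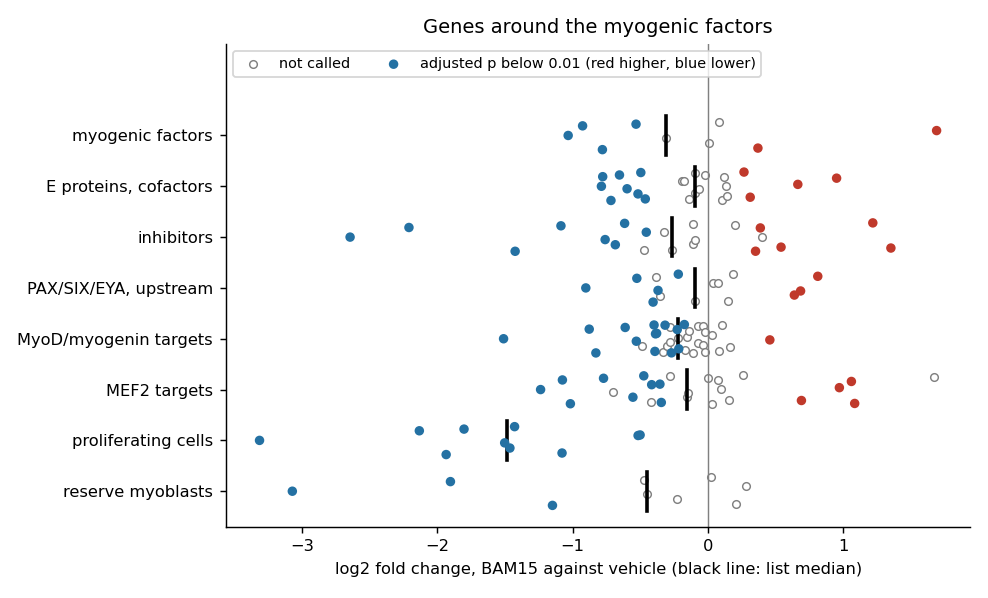
Log2 fold change with BAM15 against vehicle (horizontal axis) of every tested gene in the list of 9 factors, 5 lists of genes around them and 2 marker lists; filled points passed an adjusted p of 0.01 (red higher, blue lower), open points did not, and black lines are list medians. Targets of MyoD and myogenin hold 14 filled points to the left of 0 and 1 to the right, and all 10 genes of proliferating cells lie to the left.

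The genes most like the 3 factors with the lowest p-values, Myod1, Mef2c and Pax7, were sought by the root mean square difference of centred log2 values over the 12 libraries, among 10469 genes. Nearest to Myod1 were Msmo1 (0.0731), S100a6 (0.0827) and Adcy7 (0.0846). Nearest to Mef2c were Dusp27 (0.044), Lmo7 (0.0521) and Mxd4 (0.0576). Nearest to Pax7 were Adgrl3 (0.111), Plekha2 (0.124) and Igfbp4 (0.129), at larger distances than for the other factors. Counting noise adds to the distance, and Pax7 had a mean normalized count of 167, against 915 for Myod1 and 23027 for Mef2c. Its part in the larger distances was not tested. Parts of the last bases of Mxd4, Adgrl3 and Plekha2 lie opposite other annotated genes, and 7.94% of the 50-base windows of Igfbp4 are shared with other genes. The measure takes in both the change with BAM15 and the spread between libraries.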

How the data were processed

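The authors made 3′ QuantSeq libraries with single forward reads from total RNA. The deposited counts are unnormalized read numbers for each Ensembl gene. A deposited table of normalized signal, which the authors made with DESeq2 (version 1.22.2 in the submitters' processing notes, beside build GRCm38), equals the counts after division by a factor for each library (0.836 to 1.07) and supplied gene symbols only. The annotation, filters and strand of counting are not given in the sources used here, and 11 columns of other samples were not used. No library was a copy of another, since sampling noise did not cover the difference of any pair within a condition (chi-square per gene 5.00 or more).

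Counts were tested with edgeR 4.0.16 in R 4.3.3 (filterByExpr, TMM factors 0.932 to 1.04, robust quasi-likelihood fit, condition as the only term) with Benjamini-Hochberg adjustment over 12730 genes, and with 4 groups for changes within library numbers. Normalized counts are TMM-scaled, and 95% intervals use 10 degrees of freedom. The fit was run on simulated counts with the same spread setting for all genes and changes only in well-counted genes. That run does not cover changes in genes with few reads or differences among the BAM15 libraries. Alternatives were other scalings, filters, DESeq2 1.42.0, limma-voom (limma 3.58.1), blocks, subsets and each library left out. Named genes are the 9 factors, up to 3 genes per list and direction with the lowest p among those with an adjusted p below 0.01 and a mean above 50, and the 3 nearest patterns; 1 gene that this rule takes in is not reported here. Marker genes were named by their calls after their values were seen. The factors, the lists and the split of library numbers were chosen with earlier results of these data known.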

Additional observations from a re-analysis of the deposited data

How the results depend on the processing

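The 4 factors that fell (Pax7, Myod1, Mef2a and Mef2c) did so at an adjusted p below 0.01 in all 23 alternatives, and Myf5 rose in all 23, with log2 fold changes of 1.00 (numbers 1 to 3 only) to 2.06 (numbers 4 to 6 only). The number of factors that rose was 1 with library size only and with numbers 1 to 3 only, through the loss of Myog (adjusted p = 0.0145 and 0.0432), and 1 to 2 when each library was left out. The number past the 3 thresholds was 1 with numbers 4 to 6 only, where Myod1 changed by -0.97, and 1 to 3 when each library was left out, 1 without BAM15 library 2 and 3 without BAM15 library 5. Six4 changed sign without passing the test, at -0.0083 with upper quartile scaling, -0.0367 with library size only, -0.0357 with limma-voom, -0.0327 with the replicate block, -0.026 with a block for numbers 1 to 3 against 4 to 6, -0.28 with numbers 1 to 3 only and between -0.14 and 0.10 with libraries left out. Myf6 had 0.32 with numbers 4 to 6 only, and it could not be fitted with numbers 1 to 3 only or with at least 10 counts in every library. The cause of these shifts was not tested. With the library number as a replicate block 4 factors fell and 2 rose, as without it, and 2572 genes fell and 2720 rose. Deviations of same-numbered libraries correlated at -0.0908 to 0.537 and only 2 of 6 numbers matched their own best, so the numbers were not taken as a pairing. Among the lists, cofactors that rose numbered 2 with library size only, with numbers 4 to 6 only and without vehicle library 6, and MyoD and myogenin targets that rose numbered 3 with numbers 1 to 3 only. MyoD and myogenin targets that fell numbered as few as 11, without BAM15 library 6. They numbered as many as 20, with a block for numbers 1 to 3 against 4 to 6. Leaving Bop1 out of the MEF2 targets, an alternative chosen after seeing the data, gave 9 lower and 4 higher, as before. Depth limits Myf6 most, at 4 to 23 reads per library.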
